A study of Mus musculus with 6 samples.

Results

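Heme synthesis enzymes and globins were read in the livers of 6 mice. The Retnla transgene was present in 3 of them, numbered Tg 5 to Tg 7, and absent from the other 3, numbered non-Tg 1 to non-Tg 3. The set holds 9 of the 18193 genes that have a probe set of their own, the enzymes Alas1, Alas2, Alad, Urod, Cpox, Ppox and Fech and the globins Hbb-b2 and Hba-a1. Its members are all probe sets that the platform annotation assigns to exactly 1 of these symbols, 20 of 45037 non-control probe sets. Of the 9 genes, 8 passed the filter on dim probe sets, a mean log2 signal above 5.63 over the 6 arrays, and so did 16 of the 20 probe sets. Hba-a1 did not pass. The probe set with the highest mean stands for each gene, and a value called a log2 signal below is that probe set's unless stated otherwise.

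All 6 mice were males on a C57BL6/J background, aged 3 months, that ate a high-fat chow (21% fat with 0.15% cholesterol) for 4 weeks, starting when they were 8 weeks old. The 2 groups differ by the Retnla transgene, whose product, resistin-like molecule alpha, is secreted from cells. Neither the promoter driving the transgene nor any flushing of blood from the livers is described in the labels. Liver RNA from each mouse was hybridized to 1 Affymetrix mouse expression array. Retnla separated the groups, at log2 signals of 16.04, 15.91 and 16.04 in the Tg mice against 6.03, 7.41 and 6.48. Of 12705 genes tested, 2 passed a limma adjusted p of 0.05, which is 0.0157% of them, and neither belongs to the set.

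Heme is built from glycine and succinyl-CoA by a chain of enzymes that begins and ends in the mitochondrion. The first step, by 5-aminolevulinate synthase, sets the rate and exists as a pair of isoenzymes: Alas1 in hepatocytes and most other cells, held down by heme itself, and Alas2, an X-linked gene of red-cell precursors. Hepatocytes spend most of their heme on cytochromes P450, whereas red-cell precursors put theirs into hemoglobin, a tetramer of alpha and beta globin chains. Young red cells still carry globin and Alas2 RNA, and a piece of liver holds blood. In such bulk tissue, fewer cells of a type and less RNA per cell cannot be told apart.

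Alas2 and Hbb-b2 were higher in all 3 Tg livers than in any non-Tg liver, by log2 differences of 0.46 and 0.79. The 6 other enzymes had differences between -0.29 and 0.054, and none of them separated the groups. No member passed limma's test over all genes, so 0 of 8 were called against 0.0157% of all genes. Groups did not overlap with Tg higher for 2 of the 8 members tested, against 6.04% of all genes, and with Tg lower for 0 of 8, against 5.64%. These counts describe members chosen with earlier results of the data known.

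**Figure D1:**
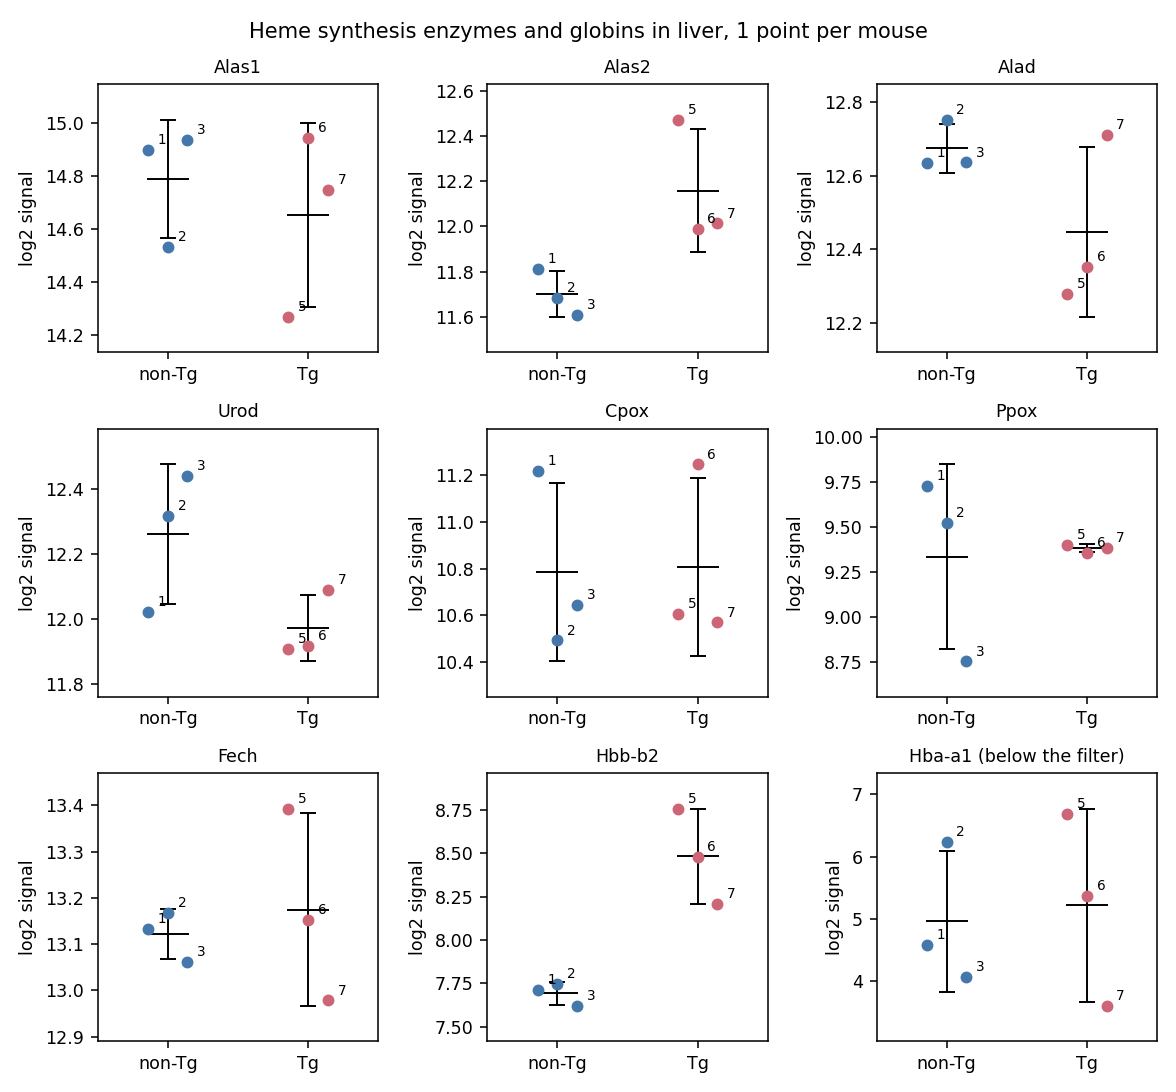
Log2 signal of the probe set with the highest mean for each of the 9 genes, 1 point per mouse with its number, non-Tg mice in blue and Tg mice in red; the horizontal line is the group mean and the bar its SD (n = 3), and each panel has its own axis that does not start at 0. Alas2 and Hbb-b2 are the panels in which all 3 Tg points lie above all 3 non-Tg points.

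The upstream sequences of Alas2, of an alpha and a beta globin gene and of Alas1 are shown as the red-cell genes and the hepatocyte isoenzyme that the comparison sets side by side. Of these 4 genes, Alas2 was the one whose own probe set separated the groups. They are the 250 bases before the start of each gene, taken from RefSeq on GRCm38.p6, at chrX:150547167-150547416 (plus strand) for Alas2, chr11:32283422-32283671 (plus) for Hba-a1, chr7:103813924-103814173 (minus) for Hbb-bt and chr9:106247955-106248204 (minus) for Alas1. The promoter table held 7 of the 9 genes, all but Fech and Hbb-b2. Hbb-bt is 1 of the genes listed for the shared beta globin probe set described below. Capitals mark, on either strand, the GATA factor words AGATAA or AGATAG and TGATAA or TGATAG, the CACCC box CACCC and the TATA word TATAA.
Alas2: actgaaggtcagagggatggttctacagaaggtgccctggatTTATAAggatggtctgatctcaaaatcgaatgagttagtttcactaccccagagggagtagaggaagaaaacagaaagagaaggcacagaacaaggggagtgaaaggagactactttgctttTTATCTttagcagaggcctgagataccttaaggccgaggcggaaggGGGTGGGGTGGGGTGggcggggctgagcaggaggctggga
Hba-a1: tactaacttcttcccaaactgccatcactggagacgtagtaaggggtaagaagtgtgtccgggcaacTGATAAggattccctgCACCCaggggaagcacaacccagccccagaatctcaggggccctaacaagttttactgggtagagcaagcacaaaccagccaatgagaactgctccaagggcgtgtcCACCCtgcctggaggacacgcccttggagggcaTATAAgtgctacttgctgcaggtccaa
Hbb-bt: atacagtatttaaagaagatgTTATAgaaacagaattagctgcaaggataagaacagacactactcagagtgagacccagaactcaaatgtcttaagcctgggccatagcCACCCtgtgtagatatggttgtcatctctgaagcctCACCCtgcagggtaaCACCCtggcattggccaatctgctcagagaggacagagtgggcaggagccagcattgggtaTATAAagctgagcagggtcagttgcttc
Alas1: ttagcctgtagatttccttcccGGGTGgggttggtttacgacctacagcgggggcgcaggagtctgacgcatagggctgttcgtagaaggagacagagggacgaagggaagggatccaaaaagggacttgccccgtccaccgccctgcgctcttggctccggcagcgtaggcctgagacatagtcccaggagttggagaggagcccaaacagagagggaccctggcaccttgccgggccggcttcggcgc
GATA factors and the CACCC-binding factor KLF1 are the main activators of red-cell genes. Alas2 had a GATA word 86 bases before its start and CACCC at 40, 35 and 30 bases, with overlapping TATAA words at 208 and 207 bases. Hba-a1 had a GATA word at 183 bases, CACCC at 167 and 60 bases and TATAA at 27 bases. Hbb-bt had CACCC at 140, 104 and 89 bases and TATAA at 229 and 28 bases, with no GATA word of these letters in the window. Hbb-bs, listed for the same probe set, had a GATA word at 210 bases. In Alas1 the only one of these words before the start was CACCC at 228 bases. Cpox, an enzyme that did not separate the groups, had 2 GATA words and 4 CACCC before its start, while Alad, Urod and Ppox had none of these words there. Among 32851 RefSeq windows of 300 bases, which also reach past the start, 29.8% held a GATA word, 57.5% CACCC and 24.9% TATAA, so these letters are common.

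Nuclear respiratory factor 1 is known to activate Alas1. The NRF1 word, read on both strands, was present in 4.60% of those windows and lay in Alas1 at 0 and 29 bases after the start. The stretches that hold it, at chr9:106247938-106247961 and chr9:106247909-106247932 on the minus strand, are printed with the word in capitals.
Alas1, at the start: tcggcgcGCGCGTGCGCgcggcag
Alas1, downstream: acccaagGCGCATGCGCggcggtc
The word was not found in the windows of Alas2, Hba-a1, Hbb-bt, Alad, Urod, Cpox or Ppox. Such matches describe letters and say nothing of binding in these livers.

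Alas2, the red-cell isoenzyme of the first step, had log2 signals of 12.47 in Tg 5, 11.99 in Tg 6 and 12.01 in Tg 7, against 11.81, 11.68 and 11.61 in non-Tg 1, non-Tg 2 and non-Tg 3. Tg 5 stood above the other Tg mice, and the gap between the groups, from non-Tg 1 to Tg 6, was small. The difference was 0.46 ± 0.14 (SE), a 1.37-fold higher signal, with a 95% confidence interval of 0.14 to 0.78 on the log2 scale (limma adjusted p = 0.735). By unadjusted p it ranked 171 of 12705 genes. The exact permutation p was 0.1, 2-sided, the smallest that 3 mice against 3 can give. Without Tg 5 the Alas2 difference was 0.30 (limma adjusted p = 0.746), over 1.5 times smaller.

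Hbb-b2, a beta chain of adult hemoglobin, had log2 signals of 8.76 in Tg 5, 8.48 in Tg 6 and 8.21 in Tg 7, against 7.71, 7.75 and 7.62 in the non-Tg mice in the same order as above. The non-Tg mice lay within a narrow band and the Tg mice were spread above it. The difference was 0.79 ± 0.22 (SE), or 1.73-fold, with a 95% confidence interval of 0.30 to 1.28 (limma adjusted p = 0.735), and it ranked 83 of 12705 by unadjusted p. The other Hbb-b2 probe set also separated the groups, at 8.33, 7.49 and 7.52 in Tg 5, Tg 6 and Tg 7 against 6.39, 6.82 and 6.55, a log2 difference of 1.19 ± 0.37 (SE). Mice of the C57BL/6 strains carry the beta globin haplotype whose adult genes are named Hbb-bs and Hbb-bt, and the copies are nearly identical, so what the Hbb-b2 probe sets bound in these mice is uncertain.

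Hba-a1, an alpha chain gene, was measured alone by a single dim probe set that lay below the filter. Its log2 signals were 6.69, 5.37 and 3.60 in Tg 5, Tg 6 and Tg 7 and 4.58, 6.23 and 4.06 in the non-Tg mice. The groups overlapped, and both spread over more than the difference of 0.26 ± 0.98 (SE; limma adjusted p = 0.981 over all probe sets with 1 symbol). Hba-a2 had a probe set of its own just above the filter, at -0.42 ± 0.65 (SE; limma adjusted p = 0.910), and the embryonic globins Hbb-y, Hbb-bh1 and Hba-x lay below it.

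Adult globins are also read by 4 probe sets that the annotation assigns to several near-identical globin genes at once, so they name no single gene and stand outside the 20. Of these, 3 are listed for Hba-a1 and Hba-a2 together. The first had log2 signals of 15.81, 15.39 and 15.39 in Tg 5, Tg 6 and Tg 7 against 14.97, 15.21 and 14.88 in the non-Tg mice, a difference of 0.51 ± 0.14 (SE). The others differed by 0.57 ± 0.13 and 0.69 ± 0.16 (SE each). The remaining probe set, listed for Hbb-b1, Hbb-b2, Hbb-bs and Hbb-bt, had 15.22, 14.73 and 14.77 in the Tg mice against 14.41, 14.47 and 14.20, a difference of 0.55 ± 0.14 (SE). All 4 separated the groups, and none passed when all 45037 probe sets were fitted together, with limma adjusted p from 0.782 to 0.807. With Alas2 and the 2 Hbb-b2 probe sets these make 7 probe sets, and 7 of 7 had all Tg livers above all non-Tg livers. Their differences ran from 0.46 to 1.19, and Tg 5 was the highest mouse in 7 of 7. The probe sets of Hba-a2 and Hba-a1 alone, at -0.42 and 0.26, stand outside this count, and in both the groups overlapped. The share over all genes, each read by 1 probe set, was 6.04%, and the share over all probe sets was not computed. The count of 7 cannot be read as 7 independent results. Of these probe sets, 6 read alpha or beta globin copies that are near-identical within each family, and the 4 shared ones were chosen after their values were seen. Without Tg 5 the 3 alpha probe sets differed by 0.37, 0.43 and 0.57 and the shared beta probe set by 0.39.

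**Figure D2:**
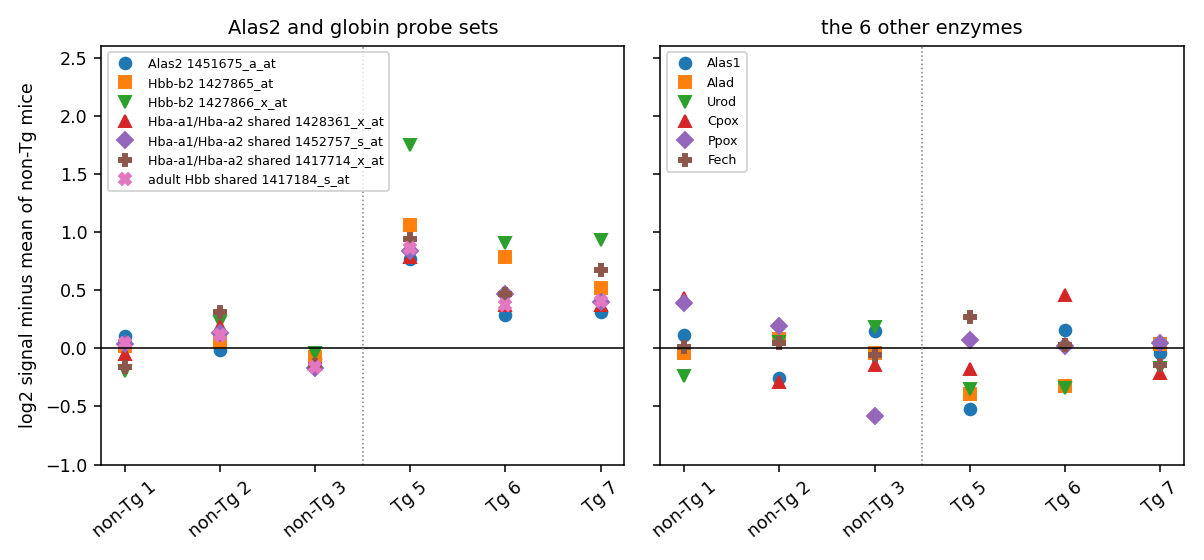
Log2 signal minus the mean of the 3 non-Tg mice, by mouse, with 1 symbol per probe set. The left side shows the 7 probe sets of Alas2, Hbb-b2 and the shared globins, and the right side the 6 other enzymes by their highest-mean probe set. The probe sets of Hba-a1 and Hba-a2 alone, whose groups overlapped, are not drawn. On the left all Tg points lie above the non-Tg points of the same symbol and Tg 5 is highest, while on the right points of both groups lie around 0.

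The arrays fall into a pair of sets by the signal of the bioC control, a bacterial transcript added as a hybridization control, with non-Tg 1, Tg 5 and Tg 6 in the lower set and non-Tg 2, non-Tg 3 and Tg 7 in the higher set. Within the lower and the higher set Alas2 differed by 0.42 and 0.37 and Hbb-b2 by 0.90 and 0.53. For the 4 shared globin probe sets the differences ran from 0.57 to 0.87 in the lower and from 0.35 to 0.59 in the higher set. The direction was the same in both sets, each of which has a single mouse on one side.

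Alas1, the hepatocyte isoenzyme of the first step, had log2 signals of 14.27 in Tg 5, 14.95 in Tg 6 and 14.75 in Tg 7, against 14.90, 14.53 and 14.94 in non-Tg 1, non-Tg 2 and non-Tg 3. Tg 5 was the lowest mouse, Tg 6 the highest, and the groups overlapped. The difference was -0.14 ± 0.17 (SE), with a 95% confidence interval of -0.51 to 0.24 (limma adjusted p = 0.889). The other Alas1 probe set gave -0.24 ± 0.23 (SE), again with Tg 5 lowest. Without Tg 5 the Alas1 difference turned to 0.058.

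Setting the isoenzymes against each other within each array cancels the scaling of that array. The log2 signal of Alas2 minus that of Alas1 was -1.80 in Tg 5, -2.96 in Tg 6 and -2.74 in Tg 7, against -3.09, -2.85 and -3.33 in the non-Tg mice. Only its shift between groups can be read, because probe sets bind with different strength. Tg 6 lay below non-Tg 2, so the groups overlapped. The shift was 0.59, from -3.09 ± 0.24 to -2.50 ± 0.62 (SD, n = 3 each), with an exact permutation p of 0.2, 2-sided, and 0.24 without Tg 5.

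Alad, which joins 2 molecules of aminolevulinate into porphobilinogen, had log2 signals of 12.28, 12.35 and 12.71 in Tg 5, Tg 6 and Tg 7 against 12.64, 12.75 and 12.64. Tg 5 and Tg 6 were below every non-Tg mouse and Tg 7 was among them. The difference was -0.23 ± 0.12 (SE; 95% confidence interval -0.51 to 0.051; limma adjusted p = 0.820), -0.32 within the lower and 0.016 within the higher set of arrays. Leaving out 1 mouse moved it over 1.5 times, to -0.14 without Tg 5 and to -0.36 without Tg 7. The other Alad probe set gave -0.081 ± 0.24 (SE).

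Urod, which trims the side chains of uroporphyrinogen and is deficient in porphyria cutanea tarda, had 11.91, 11.92 and 12.09 in the Tg mice against 12.02, 12.32 and 12.44 in the non-Tg mice. The groups overlapped only in that Tg 7 was above non-Tg 1. The difference of -0.29 ± 0.13 (SE) was the lowest among the 8 members tested, with a 95% confidence interval of -0.58 to -0.0050 (limma adjusted p = 0.807). Its other probe set gave -0.14 ± 0.12 (SE). At an unadjusted p under 0.05 the members thus held 2 of 8 on the higher side, Alas2 and Hbb-b2, against 2.93% of all genes, and 1 of 8 on the lower side, against 3.12%.

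Cpox, the mitochondrial enzyme that makes protoporphyrinogen, varied among mice of both groups. Its log2 signals were 10.61, 11.25 and 10.57 in Tg 5, Tg 6 and Tg 7 and 11.22, 10.49 and 10.65 in non-Tg 1, non-Tg 2 and non-Tg 3. Tg 6 and non-Tg 1 were high and the rest close together, so the difference of 0.022 ± 0.23 (SE; 95% confidence interval -0.49 to 0.53; limma adjusted p = 0.991) was small against the spread. It turned to -0.12 without non-Tg 2, -0.048 without non-Tg 3 and -0.20 without Tg 6. The other kept Cpox probe sets gave 0.22 ± 0.26 and -0.078 ± 0.39 (SE each).

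Ppox, which oxidizes protoporphyrinogen to protoporphyrin, had 9.40, 9.36 and 9.38 in the Tg mice and 9.72, 9.52 and 8.75 in the non-Tg mice. The Tg mice were nearly equal, with an SD of 0.022 against 0.51 in the non-Tg mice. The difference was 0.046 ± 0.24 (SE; 95% confidence interval -0.49 to 0.58; limma adjusted p = 0.979). Without non-Tg 3 it was -0.24. The other 2 Ppox probe sets, with means of 5.36 and 4.37, lay below the filter and gave 1.57 ± 0.88 and 2.34 ± 1.02 (SE each), with overlapping groups and a limma adjusted p of 0.874 and 0.871.

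Fech, which inserts iron into protoporphyrin to finish heme, had log2 signals of 13.39, 13.15 and 12.98 in Tg 5, Tg 6 and Tg 7 against 13.13, 13.17 and 13.06. Tg 5 was the highest and Tg 7 the lowest of all mice. The difference was 0.054 ± 0.11 (SE; 95% confidence interval -0.20 to 0.31; limma adjusted p = 0.945). Without Tg 5 it was -0.056. The probe sets disagreed in sign: the other kept ones gave -0.18 ± 0.11 and -0.22 ± 0.11 (SE each), and a dim probe set below the filter gave 1.19 ± 1.24 (SE). Uros, an enzyme of the pathway outside the set, differed by 0.18 ± 0.14 (SE; limma adjusted p = 0.842).

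**Figure D3:**
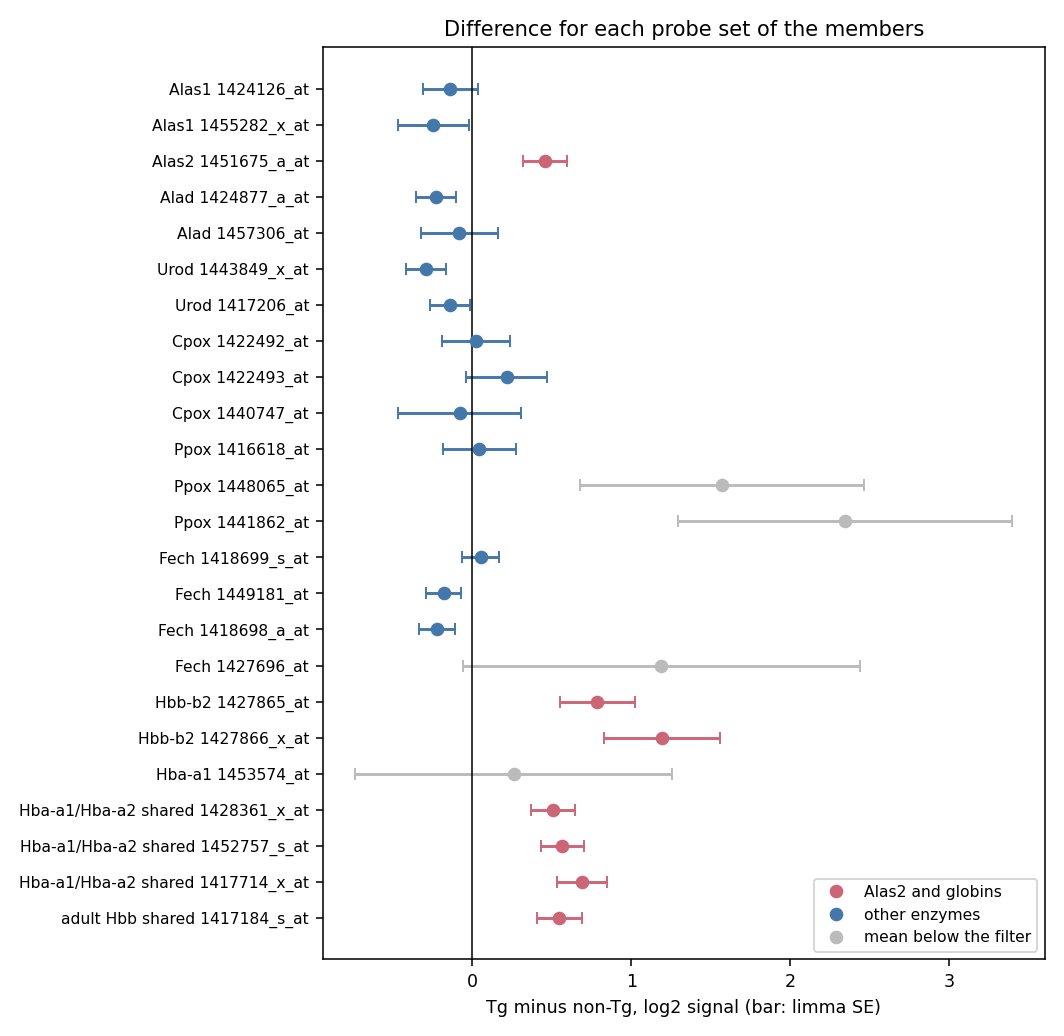
Tg minus non-Tg difference in log2 signal (horizontal axis) for the 20 probe sets of the 9 genes and the 4 shared globin probe sets, with the SE from limma over all non-control probe sets; grey points have a mean below the filter. The 7 probe sets of Alas2, Hbb-b2 and the shared globins lie from 0.46 to 1.19, and the dim Hba-a1 probe set at 0.26. The 13 kept probe sets of the other enzymes lie from -0.29 to 0.22.

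The other genes around heme and the red cell were read from lists. Over all genes tested the median difference was 0.012 and the 5th and 95th percentiles were -0.55 and 0.71. Of 40 other genes known from red cells and their precursors 23 were tested, Fech among them, with a median of 0.24, 17 higher and 6 lower in Tg livers. None passed over all genes and in none did the groups part. Without Tg 5 the median of these erythroid genes was 0.013, with 12 of 23 higher. With a stricter filter on dim probe sets, at the 60th percentile, the median was 0.064, with 11 of 16 higher. The smallest p belonged to Tfrc, the transferrin receptor that brings in iron, at 0.43 ± 0.18 (SE; limma adjusted p = 0.807), followed by the carbonic anhydrase Car2 at 0.38 ± 0.23 and the membrane skeleton protein Sptb at 0.57 ± 0.35 (limma adjusted p = 0.824 for both). Without Tg 5 Car2 was 0.16 and Sptb 0.35. Tfrc rose to 0.54 without Tg 5, its lowest Tg mouse, unlike the globins that were highest there, and it was 0.29 without non-Tg 1. Slc4a1, the anion exchanger of the red-cell membrane, stood at 1.12 ± 0.73 (SE) and at 0.57 without Tg 5. It had the largest difference of the list and was dim, with log2 signals of 4.49 in non-Tg 3 and 5.29 in Tg 7. Among the 6 genes that were lower, against 17 higher, were Tspan33 at -0.24 ± 0.17 and Car1 at -0.18 ± 0.25 (SE each). For Car1 Tg 5 was the lowest mouse, at 8.25. The red-cell transcription factors tested, Klf1, Gata1 and Tal1, stood at 0.041 ± 0.19, -0.14 ± 0.48 and 0.72 ± 0.53 (SE each). Defining red-cell genes such as Epb42, Rhag, Rhd, Kel and Hemgn lay below the filter.

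Heme breakdown and scavenging gave 9 tested genes with a median of 0.0039, 5 higher and 4 lower. Its members of smallest p were the biliverdin reductase Blvrb at -0.18 ± 0.13, the hemoglobin binder Hp at 0.071 ± 0.074, and the heme oxygenase Hmox1 at 0.31 ± 0.34 (SE each; limma adjusted p from 0.841 to 0.875). Hmox1 was spread widely in Tg mice, with an SD of 0.81 against 0.13 in the non-Tg mice, and its difference was -0.048 without Tg 6. Transport of heme, porphyrins and mitochondrial iron gave 16 genes with a median of -0.034, led by the outer membrane protein Tspo at -0.21 ± 0.11, whose groups did not overlap, Pgrmc1 at -0.12 ± 0.090, and the porphyrin transporter Abcb6 at -0.17 ± 0.14 (SE each; limma adjusted p from 0.820 to 0.853). Tspo was the 1 gene of these 16 without overlap, against 5.64% of all genes not overlapping with Tg lower. Abcb6 was -0.037 without non-Tg 3 and Tspo -0.14 without Tg 7.

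Regulators of Alas1 had a median of -0.0033 over 12 genes, 6 higher and 6 lower. Nr1d2, a heme-binding nuclear receptor of the clock, had log2 signals of 12.03, 12.03 and 12.05 in the Tg mice against 12.34, 12.55 and 12.41, with no overlap. Its difference was -0.40 ± 0.10 (SE; limma adjusted p = 0.729). Bach1, a repressor that heme releases from DNA, was also without overlap, at -0.35 ± 0.14 (SE; limma adjusted p = 0.807), and the xenobiotic receptor Nr1i2 stood at 0.13 ± 0.16. Without Tg 6 Bach1 was -0.22. Groups did not overlap with Tg lower for 2 of these 12 genes, against 5.64% of all genes. Of 23 genes tested from the list of heme proteins of the hepatocyte 15 were lower, with a median of -0.060. The list includes Cyb5r3, at 0.16, which reduces cytochrome b5 and carries no heme itself. Groups did not overlap for 4 of the 23 with Tg lower, against 5.64% of all genes, and for 1 with Tg higher, against 6.04%. At an unadjusted p under 0.05 there were 4 lower and 2 higher, against 3.12% and 2.93%. Their smallest p belonged to the P450 enzymes Cyp7a1 at 0.61 ± 0.13, Cyp8b1 at 0.66 ± 0.22 and Cyp3a25 at -0.20 ± 0.073 (SE each; limma adjusted p = 0.432, 0.779 and 0.787). No gene of these lists passed over all genes.

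Hepatocyte markers were strong in every liver and gave a median of -0.0039 over 14 genes, with a summed signal of 888866 to 931436 in non-Tg and 878372 to 961560 in Tg mice. Smallest in p were the apolipoproteins Apob at -0.20 ± 0.082 and Apoa2 at -0.097 ± 0.077 and the fibrinogen chain Fga at 0.12 ± 0.12 (SE each; limma adjusted p from 0.807 to 0.870). Other cells of blood were read beside the globins. Platelet markers, 8 of 12 tested, summed to 2013 to 2384 in non-Tg and 2061 to 3377 in Tg mice with a median difference of 0.22, led by Treml1 at 1.39 ± 0.90, Itgb3 at 1.10 ± 0.97 and Clec1b at 0.23 ± 0.25 (SE each). Each rested on 1 mouse, with Treml1 at 0.14 without non-Tg 2, Itgb3 at -0.15 without non-Tg 1 and Clec1b at -0.086 without Tg 6. Neutrophil markers, 7 of 11 tested, summed to 960 to 1186 in non-Tg and 805 to 6717 in Tg mice with a median of 0.14 (Csf3r 1.01 ± 0.74, Lcn2 1.13 ± 0.84, Elane 1.31 ± 1.07, SE each). Without non-Tg 1 Csf3r was 0.099 and Elane 0.023, and without Tg 6 Lcn2 was -0.14. B cell markers, 8 of 9, summed to 1099 to 1295 and 1068 to 1748 with a median of 0.16 (Cd22 0.37 ± 0.39, Pax5 0.37 ± 0.55, Ighm 0.21 ± 0.31, SE each), which became 0.042 without non-Tg 3, -0.11 without non-Tg 1 and -0.17 without Tg 6 in that order. T and NK cell markers, 6 of 11, summed to 699 to 1056 and 1009 to 1516 with a median of 0.82 (Gzma 1.39 ± 0.53, Zap70 0.47 ± 0.21, Nkg7 2.31 ± 1.13, SE each). Groups did not overlap with Tg higher for 2 of the 6, against 6.04% of all genes. Nkg7 was 0.86 without non-Tg 2 and Zap70 0.28 without Tg 5. The platelet and neutrophil sums were highest in Tg 6, and the B cell and T and NK cell sums in Tg 5, the mouse with the highest globins. The sums of the hepatocyte markers and of the heme breakdown list were also highest in Tg 5, so this was not particular to blood cells. Kupffer cell markers, which include the macrophages that take up old red cells, were higher for 11 of 12 genes with a median of 0.26, summed to 37374 to 41794 and 28897 to 67722, and were highest in Tg 6 (Slc40a1 -0.24, Adgre1 0.53, C1qb 0.36). Without Tg 6 Adgre1 was 0.12 and C1qb 0.14, and without Tg 7 Slc40a1 was -0.099. With the bioC sets as a block the Kupffer median was 0.079 and the platelet median 0.074. The neutrophil median was then 0.23, the B cell median 0.11 and the T and NK cell median 0.56. Sinusoidal endothelial markers had a median of 0.051 over 10 genes (Oit3 -0.27, Kdr -0.34, Clec4g 0.12). Stellate cell markers had -0.25 over 9 (Lrat -0.93, Rgs5 0.81, Reln -0.52) and bile duct markers -0.48 over 4 (Epcam -0.47, Sox9 -0.95, Krt7 -0.49). Without Tg 6 Sox9 was -0.014, and without Tg 5 Krt7 was 0.059. The genes in parentheses are those of smallest p in each list with their log2 differences, and none passed. The part of any of these cells in the globin and Alas2 differences was not tested.

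**Figure D4:**
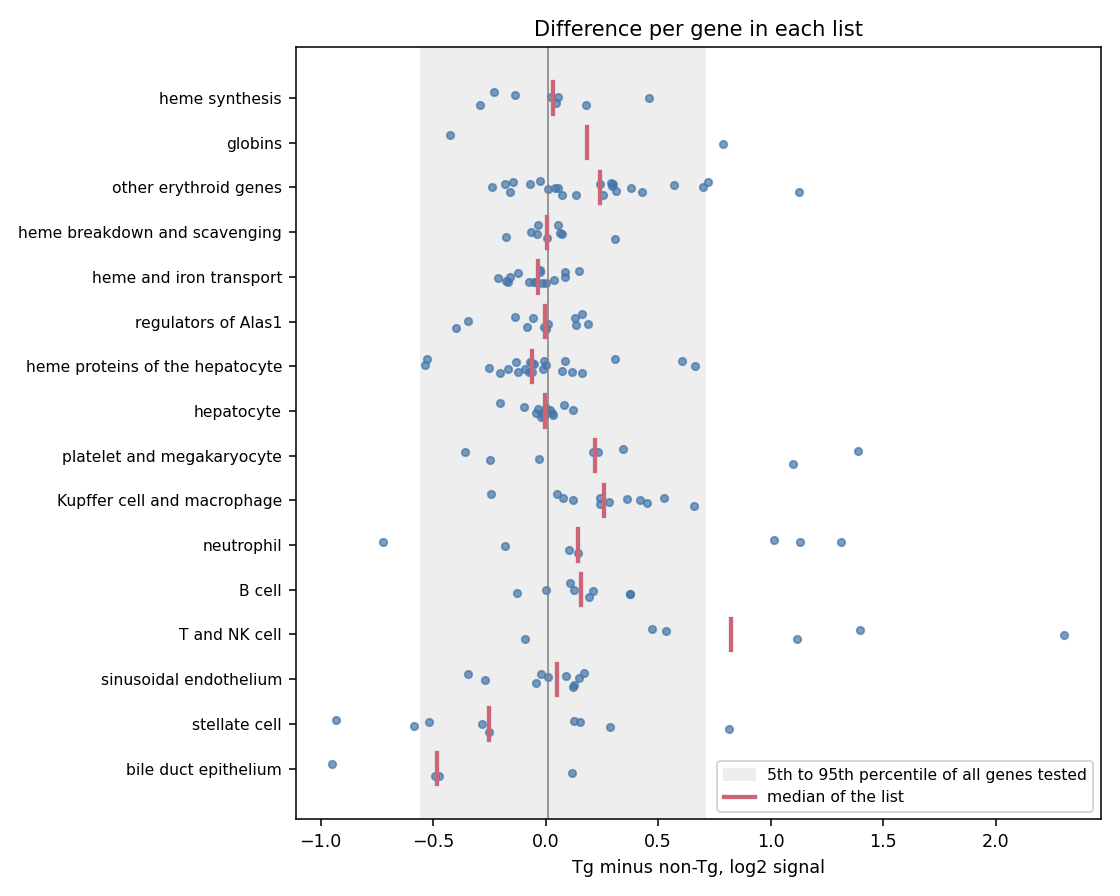
Tg minus non-Tg difference in log2 signal for each gene tested, by list (1 point per gene, vertical scatter without meaning); the red mark is the median of the list and the grey band spans the 5th to 95th percentile of all genes tested, -0.55 to 0.71. Medians of the heme lists lie between -0.060 and 0.034 and that of the other erythroid genes at 0.24.

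Genes with the profile closest to Hbb-b2 were sought among all genes tested, by the root mean square distance over the 6 mice after centring each gene on its own mean. They were Kif5a, Fem1a, Ccnjl and Luzp1, at distances from 0.0893 to 0.121, with Tg minus non-Tg differences of 0.75, 0.70, 0.93 and 0.59. For Alas1 they were Peli2, Cadm4, Hacl1 and Nmt2, at distances from 0.0502 to 0.0704, with differences of -0.19, -0.15, -0.22 and -0.091. These distances describe the 6 arrays and carry no test.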

How the data were processed

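Per the labels' protocols, 5 µg of liver RNA from each mouse went onto 1 array. The authors deposited 1 log2 signal per probe set and array. The submitters' processing notes name GCOS, and the summary algorithm is not given in the sources used here. Array medians ran from 6.49 to 6.74; signals were kept as deposited. Precision is limited by the 6 arrays, with the mouse as replicate. GEO's annotation gave 1 symbol for 34945 of 45037 non-control probe sets, several for 932 and none for 9160. Probe sets with a mean above the 40th percentile were kept, and the one with the highest mean stood for each of 12705 genes. Groups were compared with limma 3.58.1 under R 4.3.3, with moderation that follows the intensity and 2-sided p-values adjusted by Benjamini and Hochberg at 0.05. Values of further probe sets come from the same fit over all probe sets with 1 symbol, and of shared globin probe sets over all non-control ones, the latter chosen after seeing the data. Exact permutation tests ran over 20 assignments of mice. The procedure was tested on simulated data.

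The members and lists were chosen with earlier results of these data known. The rule for named genes took all members, the 3 genes of smallest p in each list, and the 4 genes closest to Hbb-b2 and to Alas1. Slc4a1, Tspan33, Car1, Klf1, Gata1, Tal1 and the globins outside the set were named after their values were seen. Upstream sequences are RefSeq's (GRCm38.p6). Alternatives were other constants, filters, scalings, moderations, ways to combine probe sets, the bioC sets as a block and leaving out each mouse, the last also for the named genes of the lists, which was chosen after seeing the data. Figures used matplotlib 3.10.9 under Python 3.11.15.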

Additional observations from a re-analysis of the deposited data

How the results depend on the processing

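Under 15 alternatives 0 of the 8 members tested passed, with 120 values in all, of which 108 kept their direction. Changing the filter or the moderation left every member's difference as it was, so direction could not turn under those alternatives. The same holds for the mean of all kept probe sets for Alas2 and Ppox, which have a single kept probe set each. Alas2 ran from 0.30 to 0.54 (limma adjusted p from 0.454 to 0.995), Hbb-b2 from 0.64 to 0.99 (0.400 to 0.995), Urod from -0.41 to -0.20 and Alad from -0.36 to -0.14, each with its direction kept in 15 of 15. The 12 values that turned belong to Cpox, Ppox and Fech, whose differences lay near 0, and to Alas1, at -0.14, which turned only without Tg 5. Centring arrays on their median gave Cpox -0.051, Ppox -0.028 and Fech -0.020. The mean of all kept probe sets gave Fech -0.12, and the bioC sets as a block gave Cpox -0.15 and Ppox -0.051. Leaving out a mouse gave Cpox from -0.20 (without Tg 6; -0.12 without non-Tg 2 and -0.048 without non-Tg 3) to 0.24, Ppox from -0.24 (without non-Tg 3) to 0.24, Alas1 from -0.28 to 0.058 (without Tg 5) and Fech from -0.056 (without Tg 5) to 0.15. The cause was not tested. The shift of Alas2 minus Alas1 stayed positive under 11 alternatives, from 0.24 to 0.82 when a mouse was left out. Median centring is among them and could not change it, because it cancels within an array. The count of all genes past the threshold, 2, became 6 with 64 added before the log, 5 with median centring, 4 with robust moderation and 4 with the block, and was 2 to 3 when a mouse was left out. The heme synthesis list, 5 of 8 higher, had 2 of 8 higher with median centring, 3 of 8 with the block or without non-Tg 3, and 4 of 8 without non-Tg 2, without Tg 6 or with the mean of all probe sets, and its median ran from -0.095 to 0.14, turning sign. The median of the other erythroid genes ran from 0.013 without Tg 5 to 0.36 without Tg 6. It also fell with all mice kept. It was 0.064 with the filter at the 60th percentile, 0.11 with the mean of all kept probe sets and 0.14 with 64 added before the log. No paired analysis was possible because the groups share no replicate number. Dim probe sets limit the Hba-a1, Ppox and Fech values named as below the filter. They also limit list genes that passed the filter by their mean but had single mice far below 5.63. Examples are Nkg7 at 1.65 and Treml1 at 3.32 in non-Tg 2, and Elane at 2.43 and Itgb3 at 2.84 in non-Tg 1.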
